A study of Homo sapiens with 6 samples.

Results

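Aminoacyl-tRNA synthetases are the enzymes that load each amino acid onto its tRNA before translation, and their transcripts were followed here after EHMT2 was targeted in SK-NEP-1 cells. Members were taken by gene symbol, and all 37 symbols were found among the 55765 rows of the expression table: 19 genes for cytosolic enzymes, 16 for mitochondrial enzymes, and GARS and KARS, which each serve both compartments. No threshold on measured values was used to pick members, but the list was chosen with earlier results of these data known. The cells were SK-NEP-1, which the submitters call a Wilms tumor line, given a small interfering RNA against EHMT2 (siEHMT2, 3 libraries) or a control one (siNC, 3 libraries). EHMT2 encodes an enzyme that methylates lysine 9 of histone H3. All 6 libraries came from 1 cell line, and the labels used here name neither dose nor time. Nothing says that the replicates were separate cultures, so a p-value speaks only of the spread among these libraries, which may be technical. Levels are FPKM, a fragment count adjusted for how long a transcript is and how many fragments its library has, so genes can be set side by side per length.

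Each synthetase recognizes its own amino acid and a matching set of tRNAs, and the enzymes fall into class I and class II by the fold of their catalytic core. Cytosolic and mitochondrial translation mostly use separate synthetases, all encoded in the nucleus, with GARS and KARS as the exceptions. In animal cells several cytosolic synthetases sit together in the multisynthetase complex on the scaffold proteins AIMP1, AIMP2 and EEF1E1, and many cytosolic synthetase genes are known targets of ATF4, the transcription factor of the integrated stress response, through the amino acid response element.

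EHMT2, the targeted gene, had 7.61, 8.26 and 16.2 FPKM in siEHMT2 libraries 1 to 3, against 27.5, 27.2 and 22.7 FPKM in the siNC libraries. The groups did not overlap, and siEHMT2 library 3 was the highest on the siEHMT2 side. The log2 difference was -1.27 ± 0.24 (SE), with an adjusted p of 0.0609 by limma with Benjamini-Hochberg adjustment over 12859 tested genes. Without siEHMT2 library 3 it was -1.58 (limma adjusted p = 0.0163). Total FPKM ranged from 244702 to 272271 per library, of which 19.0% to 23.6% fell on mitochondrially encoded rows; the depth in reads is unknown. Of 10 nephron progenitor and Wilms tumor markers, 5 had a mean under 1 FPKM, among them SIX2, PAX2 and LHX1, and the list summed to 12.55 to 12.96 FPKM in siEHMT2 and 11.96 to 13.19 FPKM in siNC libraries. The 8 Ewing sarcoma markers summed to 253 to 277 FPKM in siEHMT2 and 271 to 294 FPKM in siNC libraries, so the kidney lineage of the label is not reflected in these defining markers. Markers of other cells were near the floor: no immune marker passed 0.354 FPKM, no endothelial marker 0.737 FPKM and no fibroblast marker 1.37 FPKM in any library. The 4 epithelial markers summed to 4.27 to 8.12 FPKM in siEHMT2 and 3.90 to 4.80 FPKM in siNC libraries, and their part in the results was not tested.

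Cytosolic synthetase transcripts summed to 3.07 to 3.30 times the mitochondrial ones in siEHMT2 and 3.24 to 3.32 times in siNC libraries, and the highest synthetase transcript in these cells was NARS, for asparagine. NARS had 73.9, 62.9 and 61.4 FPKM in siEHMT2 libraries, against 66.9, 63.7 and 71.3 FPKM in siNC libraries. MARS, for methionine, and VARS, for valine, were the next cytosolic transcripts, with means over the 6 libraries of 43.8 and 40.5 FPKM. VARS had 39.2, 42.2 and 42.7 FPKM in siEHMT2 libraries, against 40.9, 39.6 and 38.6 FPKM in siNC libraries. NARS stood above every other synthetase in each library, while the values of VARS overlapped those of its neighbor FARSA, which averaged 39.8 FPKM. Below NARS, the cytosolic means ran without a wide gap from MARS down to DARS, for aspartate, at 21.0 FPKM.

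4 cytosolic genes lay below that range: CARS for cysteine, WARS for tryptophan, HARS for histidine and TARSL2, a close copy of the threonine enzyme gene TARS. They averaged 8.34, 7.60, 7.30 and 3.69 FPKM over the 6 libraries. TARSL2 had 4.28, 4.06 and 2.89 FPKM in siEHMT2 libraries, against 3.14, 3.52 and 4.24 FPKM in siNC libraries, and had the lowest mean of all 37, though WARS2 was lower in siEHMT2 library 1 and PARS2 in siNC library 3. TARS had 24.5, 20.7 and 19.0 FPKM in siEHMT2 libraries, against 22.6, 22.8 and 23.6 FPKM in siNC libraries. The groups overlapped for both copies, and TARS exceeded TARSL2 in every library, by 5.10 to 6.59 times in siEHMT2 and 5.56 to 7.20 times in siNC libraries.

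Among the genes serving both compartments, GARS, for glycine, had 46.6, 41.8 and 35.8 FPKM in siEHMT2 libraries, against 43.5, 45.0 and 48.5 FPKM in siNC libraries. Those groups overlapped. Most mitochondrial genes were low, and IARS2, for isoleucine, was the exception. IARS2 had 37.5, 33.7 and 29.7 FPKM in siEHMT2 libraries, against 34.8, 34.6 and 35.2 FPKM in siNC libraries, which placed it level with its cytosolic counterpart IARS. RARS2, for arginine, followed with 17.2, 14.1 and 11.8 FPKM in siEHMT2 libraries and 14.8, 13.2 and 14.2 FPKM in siNC libraries. YARS2, for tyrosine, had 12.4, 15.1 and 13.6 FPKM in siEHMT2 libraries and 13.4, 12.2 and 11.99 FPKM in siNC libraries, so RARS2 and YARS2 could not be ordered beyond their spread. The groups overlapped for each of these genes.

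The lowest mitochondrial transcripts were those of FARS2 for phenylalanine, PARS2 for proline and WARS2 for tryptophan. FARS2 had 5.46, 4.74 and 5.97 FPKM in siEHMT2 libraries, against 5.61, 4.86 and 4.90 FPKM in siNC libraries. PARS2 had 4.97, 5.02 and 5.65 FPKM in siEHMT2 libraries, against 5.30, 5.81 and 4.17 FPKM in siNC libraries. WARS2 had 4.15, 4.94 and 3.58 FPKM in siEHMT2 libraries, against 4.43, 4.65 and 4.87 FPKM in siNC libraries. All of these groups overlapped, and FARS2 and PARS2 were not separable by level.

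**Figure D1:**
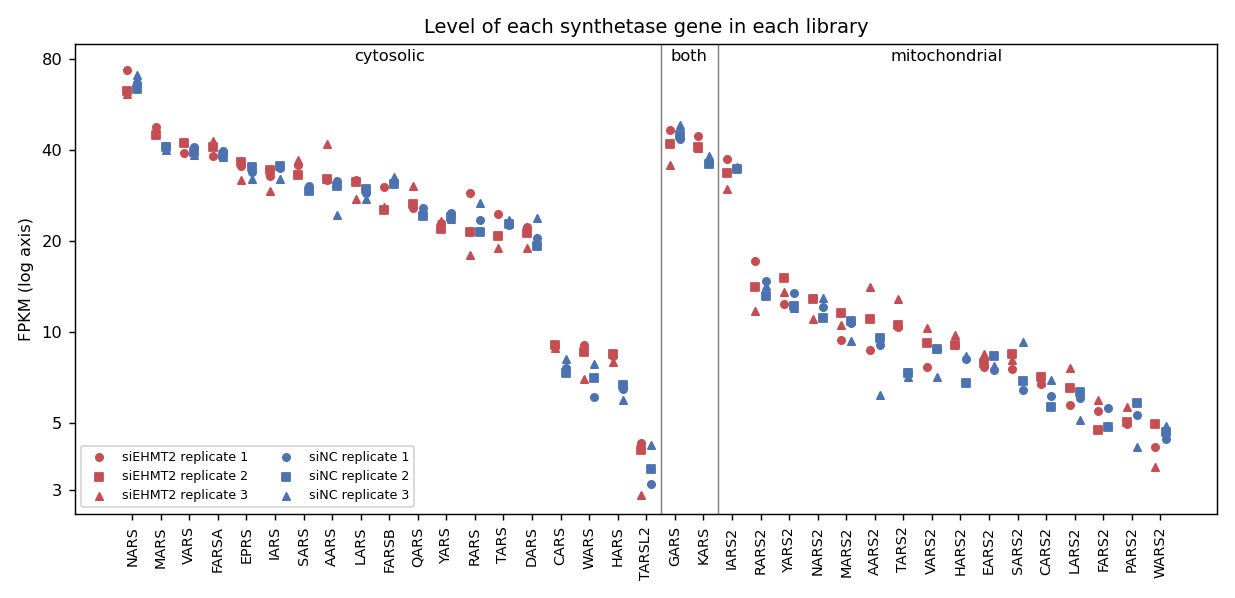
FPKM (log axis) of the 37 synthetase genes in each of the 6 libraries, siEHMT2 and siNC, ordered by mean level and grouped by compartment. NARS is highest at a mean of 66.7 FPKM, IARS2 stands above the other mitochondrial genes at 34.3 FPKM, and TARSL2 has the lowest mean at 3.69 FPKM.

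No synthetase gene passed the threshold of an adjusted p of 0.05 between siEHMT2 and siNC. The count was 0 of 37, against 71 of 12859 tested genes (0.552%; 0.342% higher and 0.21% lower in siEHMT2). All 37 had a mean of at least 1 FPKM and were tested. At an unadjusted limma p under 0.05 there were 3, TARS2, HARS and SARS, all higher in siEHMT2; this was 8.11% of the synthetases, against 18.8% of tested genes. Most differences were small. On the deposited scale 27 genes were on the higher side in siEHMT2 and 10 on the lower, but 20 and 17 with libraries rescaled to the same FPKM sum, and 21 and 16 with mitochondrially encoded rows left out of that sum. The median log2 difference was 0.06, beside 0.01 over all tested genes, of which 52.4% were above 0. Rescaled to the same sum, it was 0.02, beside -0.03 over all tested genes, of which 45.7% were above 0. With libraries rescaled to the same median over tested genes, 26 genes were on the higher side and 11 on the lower. The median log2 difference was then 0.05, where 49.9% of all tested genes were above 0.

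Libraries of the 2 groups did not overlap for 10 of the 37 genes (27.0%, against 26.3% of all tested genes), a share near the background. Every siEHMT2 library was above every siNC library for TARS2, HARS, SARS, MARS, HARS2, CARS, KARS and AARS, which is 8 of 37 genes where 14.6% of tested genes did so (7 where mitochondrially encoded rows were left out of the FPKM sum used for scaling). Every siEHMT2 library was below every siNC library for FARSB and YARS, which is 2 of 37 genes where 11.7% of tested genes did so. YARS, for tyrosine, had 23.0, 21.9 and 23.3 FPKM in siEHMT2 libraries, against 24.8, 24.1 and 23.7 FPKM in siNC libraries, with the nearest libraries of the groups close together.

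**Figure D2:**
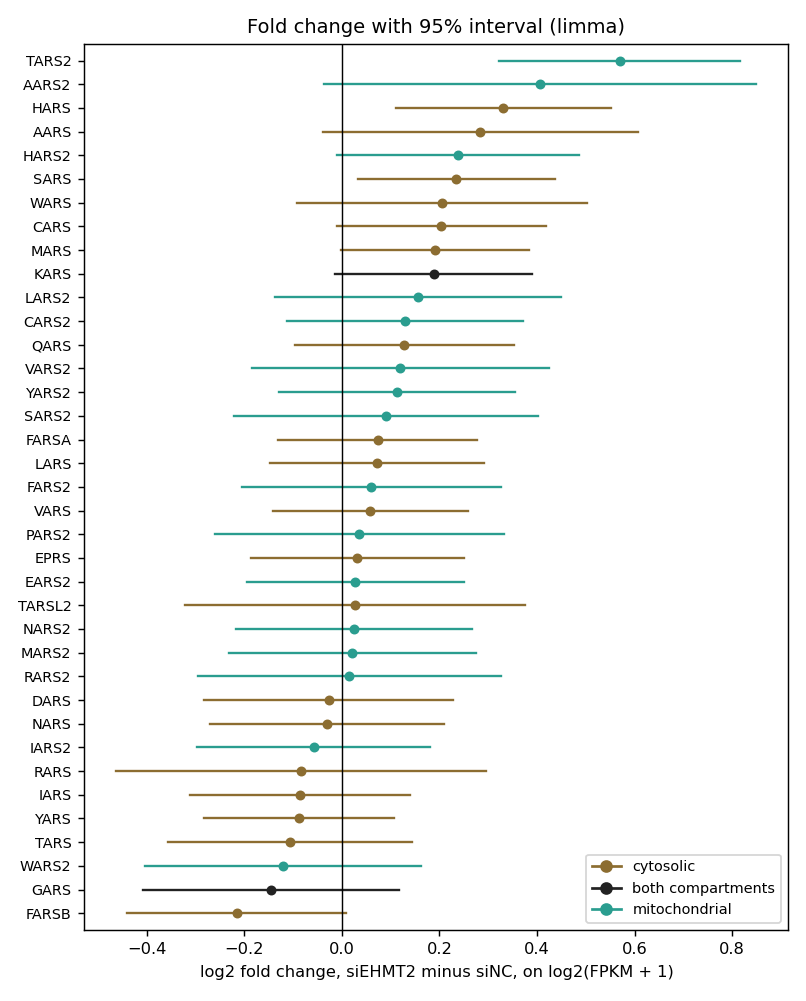
Log2 difference (siEHMT2 minus siNC, log2(FPKM + 1) scale) of each synthetase gene with its 95% interval from limma, ordered by size and colored by compartment. TARS2 is at 0.57, HARS at 0.33 and FARSB at -0.22. On the deposited scale shown 27 of the 37 genes lie above 0, and 20 with libraries rescaled to the same FPKM sum. With libraries rescaled to the same median over tested genes, 26 lie above 0.

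TARS2, the mitochondrial threonine enzyme gene, had the smallest p of the family. It had 10.4, 10.6 and 12.8 FPKM in siEHMT2 libraries, against 7.35, 7.29 and 7.07 FPKM in siNC libraries. The groups were well apart, and siEHMT2 library 3 was the highest. The means were 11.3 ± 1.36 and 7.24 ± 0.150 FPKM (SD, n = 3 each), and the log2 difference was 0.57 ± 0.11 (SE), with a 95% interval of 0.32 to 0.82. Its adjusted p by limma with Benjamini-Hochberg adjustment was 0.0609, just short of the threshold. Without siEHMT2 library 3 the difference was 0.48 (limma adjusted p = 0.0520).

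For the other threonine enzyme genes the interval of the difference spanned 0. The log2 difference was -0.11 for TARS, with a 95% interval of -0.36 to 0.14, and 0.03 for TARSL2, with an interval of -0.32 to 0.38. The ratio of TARS to TARS2 was 2.35, 1.96 and 1.48 in siEHMT2 libraries, against 3.08, 3.13 and 3.34 in siNC libraries. Cytosolic transcript exceeded mitochondrial transcript in all 6 libraries, by less in each siEHMT2 library than in any siNC library. The GC content was 44.6% for TARS and 54.9% for TARS2 transcripts. This ratio was not corrected for GC content, whose part in it was not tested.

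HARS and HARS2 encode the cytosolic and mitochondrial histidine enzymes and lie head to head on chromosome 5. HARS had 8.30, 8.47 and 7.97 FPKM in siEHMT2 libraries, against 6.46, 6.66 and 5.96 FPKM in siNC libraries. HARS2 had 9.07, 9.02 and 9.77 FPKM in siEHMT2 libraries, against 8.13, 6.77 and 8.35 FPKM in siNC libraries. For both genes all siEHMT2 libraries were higher than all siNC libraries, and neither passed the threshold. The log2 difference of HARS was 0.33 ± 0.10 (SE, limma adjusted p = 0.130), and that of HARS2 was 0.24 ± 0.11 (SE, limma adjusted p = 0.283). The ratio of HARS to HARS2 overlapped between the groups, at 0.815 to 0.939 in siEHMT2 and 0.713 to 0.983 in siNC libraries.

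The start sites annotated for HARS and HARS2 in RefSeq (GRCh38.p14, chromosome 5) are 85 bases apart, HARS at 140691370 on the minus strand and HARS2 at 140691455 on the plus strand. The sequence between them is printed because both genes were higher in each siEHMT2 library than in any siNC library. It covers chr5:140691371-140691454, read on the plus strand, and capitals mark the letters CCGGAAG or their reverse complement CTTCCGG, the core bound by ETS factors.

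HARS to HARS2: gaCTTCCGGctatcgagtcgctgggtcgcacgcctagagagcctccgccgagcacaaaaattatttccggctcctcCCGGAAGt

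This letter string, on either strand, was found in 16 of the 30 synthetase genes that have a window (250 bases before to 50 after the start), and in 12.2% of all 27305 genes with one. By window it was 19 of 39, against 10.3% of all 35116. A match is a description of the letters alone. Exons of HARS and HARS2 also share 437 bases on opposite strands in GENCODE 29, which is 11.7% of the HARS2 and 5.57% of the HARS exon bases. No source used here gives the strand setting of the quantification, so reads from the shared bases cannot be told apart and both values are uncertain to that extent.

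SARS, MARS, CARS and AARS, for serine, methionine, cysteine and alanine, were the other cytosolic genes with all siEHMT2 libraries higher. SARS had 35.7, 33.2 and 37.04 FPKM in siEHMT2 libraries, against 30.5, 29.2 and 29.8 FPKM in siNC libraries. Its log2 difference was 0.23 ± 0.09 (SE), with a limma adjusted p of 0.207. The size was modest, siEHMT2 libraries holding 118% of the siNC mean.

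MARS had 47.9, 44.9 and 47.5 FPKM in siEHMT2 libraries, against 41.2, 41.0 and 40.2 FPKM in siNC libraries. CARS had 9.08, 9.05 and 8.87 FPKM in siEHMT2 libraries, against 7.60, 7.34 and 8.13 FPKM in siNC libraries. Replicates of both genes were tight, and every siEHMT2 library was above every siNC library. The log2 differences were 0.19 ± 0.08 (SE) for MARS and 0.20 ± 0.09 (SE) for CARS, with limma adjusted p of 0.273 and 0.284. Exons of MARS share 355 bases on the opposite strand with DDIT3, a stress response gene described below, or 5.05% of the MARS exon bases, and the 2 cannot be told apart there without strand.

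AARS had 31.9, 32.2 and 41.9 FPKM in siEHMT2 libraries, against 31.6, 30.5 and 24.4 FPKM in siNC libraries. Libraries 1 and 2 of the groups lay close together, and most of the distance came from the libraries numbered 3. The log2 difference was 0.28 ± 0.14 (SE, limma adjusted p = 0.318), 0.16 without siEHMT2 library 3 and 0.17 without siNC library 3. AARS2, the mitochondrial alanine enzyme gene, had 8.73, 11.05 and 14.1 FPKM in siEHMT2 libraries, against 9.06, 9.55 and 6.19 FPKM in siNC libraries. Its groups overlapped, and the log2 difference of 0.41 ± 0.19 (SE, limma adjusted p = 0.301) was 0.24 without siEHMT2 library 3 and 0.23 without siNC library 3.

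FARSA and FARSB encode the alpha and beta subunits of the cytosolic phenylalanine enzyme, which works as a tetramer of both. FARSB had 30.2, 25.3 and 26.0 FPKM in siEHMT2 libraries, against 31.4, 30.9 and 32.5 FPKM in siNC libraries. FARSA had 38.3, 41.2 and 43.0 FPKM in siEHMT2 libraries, against 39.7, 38.6 and 37.9 FPKM in siNC libraries. FARSB was lower in all siEHMT2 libraries, library 1 being close to the siNC values, while FARSA overlapped. The log2 difference was -0.22 ± 0.10 (SE) for FARSB and 0.07 ± 0.09 (SE) for FARSA, with limma adjusted p of 0.283 and 0.698. The ratio of FARSA to FARSB was 1.27, 1.63 and 1.66 in siEHMT2 libraries, against 1.26, 1.25 and 1.17 in siNC libraries, and the lowest siEHMT2 ratio all but met the highest siNC ratio. Corrected for GC content, the FARSB difference was -0.12 (limma adjusted p = 0.530).

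WARS had 9.08, 8.58 and 6.98 FPKM in siEHMT2 libraries, against 6.10, 7.04 and 7.82 FPKM in siNC libraries. These groups overlapped, with siEHMT2 library 3 below 2 of the siNC libraries, and the log2 difference was 0.20 ± 0.13 (SE, limma adjusted p = 0.432). It was 0.12 without siNC library 1 and 0.31 without siEHMT2 library 3. The ratio of WARS to its mitochondrial counterpart WARS2 was higher in every siEHMT2 library, at 2.19, 1.74 and 1.95, against 1.38, 1.51 and 1.61 in siNC libraries.

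**Figure D3:**
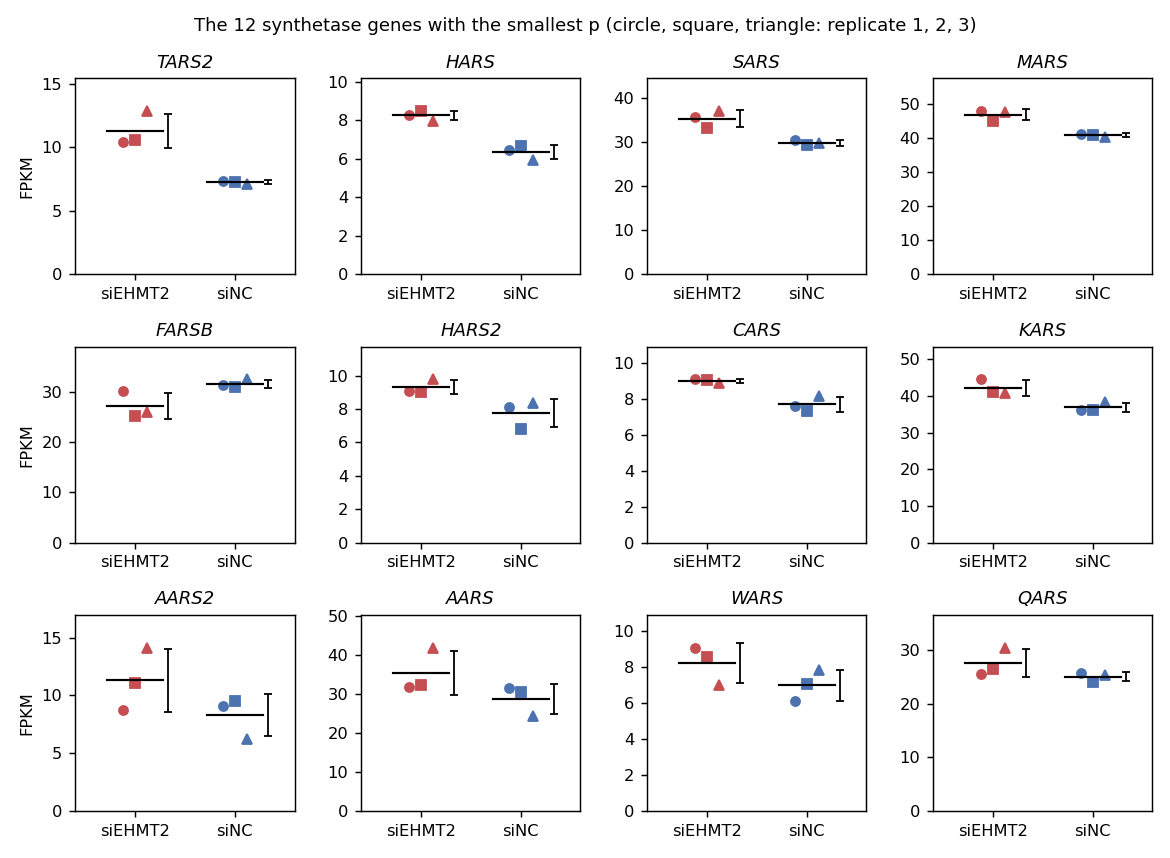
FPKM in each siEHMT2 and siNC library of the 12 synthetase genes with the smallest limma p, with the group means and SD. For 9 of these panels, TARS2, HARS, SARS, MARS, FARSB, HARS2, CARS, KARS and AARS, the groups do not overlap, and none passed the adjusted threshold. The panels were picked by small p, which favors groups that lie apart. Over all 37 genes, 10 (27%) did not overlap, against 26.3% of tested genes.

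The 8 enzyme genes of the multisynthetase complex were split, 5 on the higher and 3 on the lower side in siEHMT2 (4 and 4 with libraries rescaled to the same FPKM sum), with a median log2 difference of 0.05, beside 0.01 over all tested genes. With libraries rescaled to the same median over tested genes, the split was again 5 and 3. KARS, for lysine, was higher in each siEHMT2 library, with 44.5, 41.1 and 40.8 FPKM, against 36.2, 36.1 and 38.2 FPKM in siNC libraries. Its log2 difference was 0.19 ± 0.09 (SE, limma adjusted p = 0.294). QARS, for glutamine, had 25.7, 26.5 and 30.5 FPKM in siEHMT2 libraries, against 25.7, 24.2 and 25.4 FPKM in siNC libraries. The QARS groups overlapped at library 1, and the log2 difference was 0.13 ± 0.10 (SE, limma adjusted p = 0.521), or 0.06 without siEHMT2 library 3. DARS, EPRS, IARS, LARS and RARS had log2 differences between -0.09 and 0.07, all with overlapping groups.

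The scaffold genes of the complex showed no difference beyond their spread. AIMP1 had 15.7, 15.4 and 10.7 FPKM in siEHMT2 libraries, against 12.3, 12.8 and 15.7 FPKM in siNC libraries. AIMP2 had 24.4, 21.1 and 20.8 FPKM in siEHMT2 libraries, against 22.5, 21.6 and 23.4 FPKM in siNC libraries. EEF1E1 had 14.1, 13.0 and 12.2 FPKM in siEHMT2 libraries, against 13.9, 12.9 and 14.7 FPKM in siNC libraries. All groups overlapped, with limma adjusted p of 0.963, 0.915 and 0.717, and the 95% interval of the AIMP1 difference was -0.34 to 0.38.

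The core of the amino acid response element, TTGCATCA, was searched on both strands in the promoter windows, since many cytosolic synthetase genes are known ATF4 targets. It occurred in 6 of the 16 cytosolic or dual genes that have a window, in 0 of the 14 mitochondrial ones and in 1.08% of all 27305 genes with a window. Some genes have more than 1 window: by window it was 6 of 21, 0 of 18 and 0.866% of 35116. The sites are shown with 11 bases on each side, on the strand of the gene, from RefSeq GRCh38.p14, with the element in capitals. In NARS it reads as the reverse complement.

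AARS, chr16:70289675-70289704, minus strand: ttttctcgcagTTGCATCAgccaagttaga

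CARS, chr11:3057407-3057436, minus strand: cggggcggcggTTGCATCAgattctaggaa

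IARS, chr9:92293692-92293721, minus strand: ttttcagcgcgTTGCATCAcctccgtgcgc

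MARS, chr12:57488053-57488082, plus strand: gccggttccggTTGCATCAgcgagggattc

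NARS, chr18:57621804-57621833, minus strand: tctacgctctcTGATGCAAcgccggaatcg

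TARS, chr5:33440956-33440985, plus strand: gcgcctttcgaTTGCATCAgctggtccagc

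Counted from the annotated start as 0, the first base of the element lies at -187 in AARS, -13 in IARS, -4 in MARS, -2 in CARS, 2 in TARS and 14 in NARS. The genes that carry it did not share a direction. AARS, CARS and MARS were on the higher side in siEHMT2, while IARS, NARS and TARS had log2 differences of -0.09, -0.03 and -0.11.

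Across the 12 synthetase genes known as ATF4 targets (AARS, CARS, EPRS, GARS, IARS, LARS, MARS, NARS, SARS, TARS, WARS and YARS), 7 were on the higher and 5 on the lower side in siEHMT2 (6 and 6 with libraries rescaled to the same FPKM sum), with a median log2 difference of 0.05. With libraries rescaled to the same median over tested genes, the split was again 7 and 5. No member was called by limma, and SARS was the 1 at an unadjusted p under 0.05 (8.33%, against 18.8% of all tested genes). ATF4 itself had 131.2, 126.2 and 157.2 FPKM in siEHMT2 libraries, against 130.4, 120.5 and 143.5 FPKM in siNC libraries, with overlapping groups and a limma adjusted p of 0.795. ATF4 is regulated mainly at translation, which transcript levels do not show.

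Of the 27 integrated stress response genes listed, 22 were tested and 0 were called, 10 on the higher and 12 on the lower side, with a median log2 difference of -0.01. At an unadjusted limma p under 0.05 there were 4 (18.2%), near the 18.8% of all tested genes. With libraries rescaled to the same FPKM sum 8 were on the higher and 14 on the lower side. ASNS, the asparagine synthetase of amino acid metabolism, had 17.5, 16.4 and 16.9 FPKM in siEHMT2 libraries, against 16.2, 15.3 and 15.2 FPKM in siNC libraries (limma adjusted p = 0.521). TRIB3, a pseudokinase that restrains ATF4, had 7.99, 8.30 and 10.03 FPKM in siEHMT2 libraries, against 7.03, 6.27 and 7.30 FPKM in siNC libraries (limma adjusted p = 0.207). For both genes every siEHMT2 library was higher. DDIT3, the transcription factor CHOP, had 7.98, 7.14 and 14.1 FPKM in siEHMT2 libraries, against 7.16, 6.67 and 7.07 FPKM in siNC libraries, with siEHMT2 library 3 far above the rest and library 2 within the siNC range (limma adjusted p = 0.372). CEBPB, a transcription factor that pairs with ATF4, averaged 82.6 ± 7.66 FPKM in siEHMT2 and 106.6 ± 6.05 FPKM in siNC libraries (SD, n = 3 each, limma adjusted p = 0.122). PPP1R15A, a phosphatase subunit that ends the response, averaged 8.50 ± 1.07 FPKM in siEHMT2 and 6.23 ± 1.27 FPKM in siNC libraries (SD, n = 3 each, limma adjusted p = 0.200). None of these passed the threshold.

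The median log2 differences of cytosolic and mitochondrial synthetase genes were close. Groups did not overlap for 7 cytosolic genes (36.8%) and 2 mitochondrial genes (12.5%), against 26.3% of all tested genes. That contrast between the compartments was not tested. The median log2 difference was 0.06 over the 19 cytosolic genes, 12 of them on the higher and 7 on the lower side, and 0.08 over the 16 mitochondrial genes, 14 on the higher and 2, IARS2 and WARS2, on the lower side. The mitochondrial count of 14 was 9 with libraries rescaled to the same FPKM sum, 10 with mitochondrially encoded rows left out of that sum, and 9 with both libraries numbered 3 left out. The cytosolic count of 12 was 10, 10 and 15 under the same settings. With libraries rescaled to the same median over tested genes, the mitochondrial count was 13 and the cytosolic count 12. After the GC correction they were 12 and 13. The cytosolic median minus the mitochondrial median was -0.02, smaller than the spread of the same quantity between replicate libraries (SD 0.110), and it was 0.03 after the GC correction. The cytosolic sum over the mitochondrial sum was 3.30, 3.07 and 3.09 in siEHMT2 libraries, against 3.24, 3.25 and 3.32 in siNC libraries, with siEHMT2 library 1 within the siNC range and the others below it.

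In class I and in class II, 13 of 18 genes were on the higher side in siEHMT2 (10 of 18 in each with libraries rescaled to the same FPKM sum), with median log2 differences of 0.06 and 0.07. With libraries rescaled to the same median over tested genes, it was 12 in class I and 13 in class II. Groups did not overlap for 3 class I genes (16.7%) and 7 class II genes (38.9%), against 26.3% of all tested genes. An unadjusted limma p under 0.05 was reached by 0 class I genes and 3 class II genes (16.7%), against 18.8% of all tested genes. The difference between the classes was not tested. EPRS, whose protein joins a class I to a class II enzyme, was counted in neither. All 37 genes together summed to 811, 781 and 771 FPKM in siEHMT2 libraries, against 761, 748 and 758 FPKM in siNC libraries. As a share of the FPKM that is not mitochondrially encoded, they took 0.394%, 0.384% and 0.371% in siEHMT2 libraries, against 0.380%, 0.390% and 0.364% in siNC libraries. The sums were higher in all siEHMT2 libraries, whereas the shares overlapped.

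The remaining 25 genes, beyond the 12 of smallest p, had log2 differences between -0.14 for GARS and 0.16 for LARS2, the mitochondrial leucine enzyme gene. Their limma adjusted p lay between 0.533 for GARS and 0.965 for RARS2. The intervals limit but do not exclude moderate changes, the 95% interval being -0.41 to 0.12 for GARS and -0.14 to 0.45 for LARS2. RARS, for arginine, was the most variable in siEHMT2, with 28.9, 21.5 and 18.1 FPKM in siEHMT2 libraries, against 23.5, 21.4 and 26.8 FPKM in siNC libraries, a coefficient of variation of 24.4% in siEHMT2 and 11.4% in siNC. CARS in siEHMT2 and IARS2 in siNC were the tightest of their groups, at 1.23% and 0.925%.

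**Figure D4:**
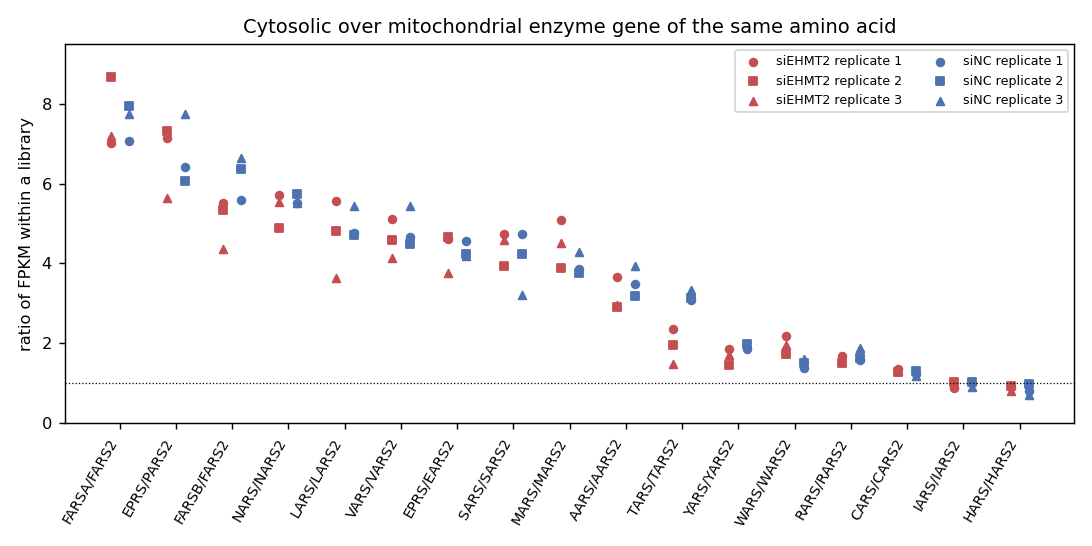
Ratio of the cytosolic to the mitochondrial transcript (FPKM over FPKM) for each pair of the same amino acid in the 6 libraries, with the dotted line at 1. The TARS/TARS2 ratio is 1.48 to 2.35 in siEHMT2 and 3.08 to 3.34 in siNC libraries, and most other pairs overlap. Ratios are not corrected for GC content.

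How much cytosolic transcript exceeded mitochondrial transcript depended on the amino acid. The ratio averaged 7.61 for FARSA to FARS2 and 6.72 for EPRS to PARS2 over the 6 libraries, and it was near or below 1 for IARS to IARS2, at 0.971, and for HARS to HARS2, at 0.860. Of the 17 ratios across compartments, the groups overlapped for 14. No such share was computed for ratios of other genes, so this count has no background. EPRS and FARS2 each enter more than 1 of the ratios, which are thus not separate. TARS to TARS2 and FARSB to FARS2 were lower in every siEHMT2 library, and WARS to WARS2 was higher. FARSB to FARS2 was 5.53, 5.34 and 4.35 in siEHMT2 libraries, against 5.60, 6.36 and 6.64 in siNC libraries. The ratios were not corrected for GC content. It was 41.6% for FARSB and 52.4% for FARS2, and 49.6% for WARS and 45.9% for WARS2.

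Part of the spread between libraries followed the GC content of the transcripts. Members were set against the median GC content of the tested genes, 50.2%, which left 17 members above it and 20 below. Of the 17 GC-rich members, 8, 14 and 17 stood above their own 6-library mean in siEHMT2 libraries 1, 2 and 3, against 4, 5 and 2 in the siNC libraries. Of the 20 GC-poor members, 15, 13 and 4 did so in siEHMT2 libraries, against 12, 10 and 13 in siNC libraries. In siEHMT2 library 3, then, every GC-rich member was above its mean and most GC-poor members were below theirs.

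Across the 37 members the Spearman correlation of GC content with a library's deviation from the gene mean was -0.49, 0.31 and 0.78 in siEHMT2 libraries, against -0.35, -0.19 and -0.47 in siNC libraries. Over all tested genes with a GC value it was -0.14, 0.11 and 0.57 in siEHMT2 libraries, against -0.19, -0.34 and -0.19 in siNC libraries. The correlation of GC content with the log2 difference was 0.61 over the members, beside 0.39 over 11223 tested genes. Genes within a library share its preparation and are not independent. After a GC correction per library, the log2 differences were 0.49 for TARS2 (limma adjusted p = 0.0511), 0.27 for HARS (limma adjusted p = 0.164) and 0.21 for SARS, while those of MARS and QARS were 0.12 and 0.04. The part of GC content in the remaining differences was not tested.

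**Figure D5:**
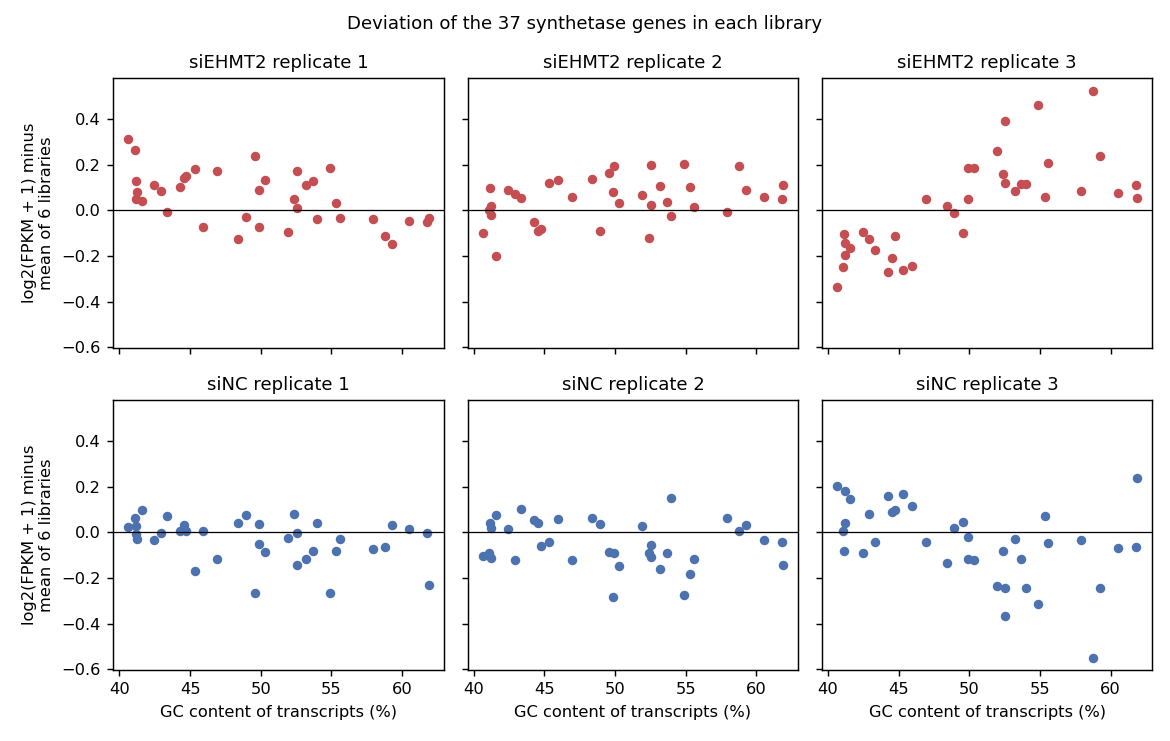
Deviation of each synthetase gene from its mean over the 6 libraries (log2(FPKM + 1) scale) against the GC content of its transcripts (percent), 1 panel per library. Points rise with GC content in siEHMT2 library 3 (Spearman rho 0.78) and fall in siEHMT2 library 1 (rho -0.49).

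Genes that act before or after the synthetases showed 0 calls by limma as well. Among the elongation factors, which bring charged tRNAs to the ribosome and move it along, 8 of 10 were on the higher side in siEHMT2, with a median log2 difference of 0.09, where 52.4% of tested genes were above 0. At an unadjusted p under 0.05 there were 2, near the background of 18.8%. EEF1G, a subunit of the exchange factor of cytosolic elongation, had 491, 432 and 535 FPKM in siEHMT2 libraries, against 338, 321 and 378 FPKM in siNC libraries. The EEF1G groups did not overlap, and the log2 difference was 0.49 (limma adjusted p = 0.1004). TUFM, the mitochondrial elongation factor that carries charged tRNA, averaged 106.7 ± 5.03 FPKM in siEHMT2 and 88.9 ± 10.1 FPKM in siNC libraries (SD, n = 3 each, limma adjusted p = 0.243).

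Of the 17 genes of tRNA processing and export, 10 were on the higher side in siEHMT2, with a median log2 difference of 0.04. It was 9 with libraries rescaled to the same FPKM sum and 10 with the same median over tested genes. At an unadjusted limma p under 0.05 there was 1 (5.88%), against 18.8% of all tested genes. POP7, a subunit of RNase P, which trims the leader of precursor tRNAs, had 53.8, 61.8 and 58.2 FPKM in siEHMT2 libraries, against 36.99, 31.3 and 48.0 FPKM in siNC libraries. Its groups did not overlap, and its log2 difference was 0.59 (limma adjusted p = 0.102). POP5, another RNase P subunit, averaged 7.75 ± 1.18 FPKM in siEHMT2 and 6.18 ± 0.331 FPKM in siNC libraries (SD, n = 3 each, limma adjusted p = 0.275).

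Of the 12 amino acid transporter genes, 4 were on the higher and 8 on the lower side in siEHMT2, with a median of -0.04. An unadjusted limma p under 0.05 was reached by 1 (8.33%), against 18.8% of all tested genes. SLC43A1, a carrier of large neutral amino acids, averaged 14.8 ± 2.19 FPKM in siEHMT2 and 18.2 ± 1.71 FPKM in siNC libraries (SD, n = 3 each, limma adjusted p = 0.265). SLC7A6, a carrier of cationic and neutral amino acids, averaged 10.5 ± 0.934 FPKM in siEHMT2 and 12.4 ± 0.410 FPKM in siNC libraries (SD, n = 3 each, limma adjusted p = 0.267). Of the 9 amidation, selenocysteine and editing genes, 8 were tested, 3 on the higher and 5 on the lower side, with a median of -0.04. Here 1 of the tested genes (12.5%) had an unadjusted limma p under 0.05, again below the 18.8% of all tested genes. AARSD1, which frees the tRNA of alanine from a wrong amino acid, averaged 13.6 ± 1.23 FPKM in siEHMT2 and 10.6 ± 1.56 FPKM in siNC libraries (SD, n = 3 each, limma adjusted p = 0.201). PET112, a subunit of the mitochondrial amidotransferase that completes glutaminyl-tRNA, averaged 1.83 ± 0.118 FPKM in siEHMT2 and 1.44 ± 0.200 FPKM in siNC libraries (SD, n = 3 each, limma adjusted p = 0.389).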

How the data were processed

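Total RNA libraries of SK-NEP-1 cells, 3 siEHMT2 and 3 siNC, were grouped by their titles. All titles name SK-NEP-1, while the labels' cell line field carries a running number, and the titles were followed. The authors deposited gene-level FPKM for each library in 1 table. The submitters' processing notes name the build hg19 and the tools StringTie 2.2.0, HISAT2 2.2.1, SAMtools 1.4.1 and fastp; their roles, the annotation and the strand setting are not given in the sources used here. Only 12.1% of low values came within 0.05 of a whole multiple over 8750 low rows, so reads could not be recovered, the depth is unknown, and count models were not applied. Each FPKM is relative to each library's total, so abundant genes can shift the others.

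Genes averaging 1 FPKM or more across the 6 libraries (12859 of 55765 rows) entered a two-sided limma test (version 3.58.1, R 4.3.3) of log2(FPKM + 1), with a mean-variance trend and no covariates. P-values were adjusted by Benjamini-Hochberg over all tested genes at a threshold of 0.05. Fold changes are on the log2(FPKM + 1) scale, which understates the change of low genes. An exact permutation of 3 against 3 libraries cannot go below 0.1 and was not used.

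Values in every library are given for the 12 synthetase genes of smallest p, the 3 highest and 3 lowest per compartment, the close copies HARS and HARS2, TARS and TARSL2, and the scaffolds. Of each other partner list, the members past the threshold or the 2 of smallest p are named, with ATF4, DDIT3, TRIB3 and ASNS, by library or as mean and SD. GARS, FARSA, YARS and RARS were added after their values were seen. Members and lists were chosen with earlier results of these data known. Of 116 list entries, 115 were found. GC content is the median over GENCODE 29 transcripts, matched by symbol. Promoter sequences are RefSeq GRCh38.p14 windows of 250 bases before to 50 after the start, matched for 30 of 37 genes; that build differs from the build of the expression values. Alternatives were other pseudocounts, filters, scalings, array weights, a replicate block and each library left out; a GC correction (loess, span 0.5), the genes with a GC value and the block with that correction were later additions, chosen with the data in view. Figures were made with Python 3.11.15 and matplotlib 3.10.9.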

Additional observations from a re-analysis of the deposited data

How the results depend on the processing

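The count of 71 genes past the threshold over the whole table depended on the processing. It was 0 with no filter on low values (3641 of 32326 rows at an unadjusted limma p under 0.05), 134 with a mean of at least 5 FPKM, 31 with libraries rescaled to the same FPKM sum, 30 without the trend, 3797 with array weights, 1890 with both libraries numbered 3 left out, and 0 to 172 with 1 library left out. It was 0 with a replicate block (1845 at an unadjusted p) and 0 with the replicate block and GC correction. The split of 44 higher and 27 lower was 10 and 21 after rescaling to the same sum. Replicate numbers did not pair the libraries: same-numbered deviations correlated at -0.35, 0.0871 and -0.393, and 1 of 6 libraries correlated best with its own number.

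The count of 0 synthetase genes became 1 with a mean of at least 5 FPKM (TARS2, limma adjusted p = 0.0428), beside 134 of 7644 tested genes. With array weights it was 6 of 37 (CARS, FARSB, HARS, KARS, TARS2 and WARS), beside 3797 of 12859 tested genes. With both libraries numbered 3 left out it was 3 of 37 (HARS, TARS2 and WARS), beside 1890 of 12859. The last 2 are smaller shares than over all tested genes. Array weights were highest for siEHMT2 library 2 (4.64) and lowest for siEHMT2 library 3 (0.276). The synthetase count ranged from 0 to 0 with 1 library left out. EHMT2 was past the threshold with a mean of at least 5 FPKM (-1.27), array weights (-1.56), both libraries numbered 3 left out (-1.67) and the GC correction (-1.38), and ranged from -1.58 to -1.08 with 1 library left out. The cause of these changes was not tested. None of the 12 synthetase genes of smallest p changed sign. Of the other 25, 18 did in at least 1 alternative and 0 were called in any. The 12 were picked by small p in these same libraries, which favors a stable sign, so this contrast does not measure robustness. The cytosolic median (0.06) ranged from 0.01 to 0.08, the mitochondrial one (0.08) from 0.03 to 0.11, both lowest with libraries rescaled to the same FPKM sum. Their difference (-0.02) ranged from -0.07 to 0.03 and was above 0 with the GC correction (0.03, also with the block), with both libraries numbered 3 left out (0.01) and without siNC library 3 (0.0028). Each of these moves was under 1 replicate SD. The alternatives reuse the same libraries, so such small moves do not show that the difference is stable. The unknown depth gives no interval for counting error, and 3 libraries a group limit what could be called.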

Other observations

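Rows that share a synthetase symbol as antisense transcripts or pseudogenes held next to nothing. CARS-AS1 was the highest, at 0.241 FPKM in siEHMT2 library 2 and at most 0.109 FPKM in siNC libraries, and FARSBP1, KARSP3, LARS2-AS1, TARS2P1 and WARS2P1 were listed at 0 in all 6 libraries.

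Several other synthetase genes share exon bases with a neighbor, and their values are uncertain to that extent. VARS2 shares 1858 bases, or 22.0% of its exon bases, with GTF2H4 on the same strand. GTF2H4, a subunit of a general transcription factor, had 7.98, 8.07 and 14.3 FPKM in siEHMT2 libraries, against 11.9, 10.5 and 9.06 FPKM in siNC libraries. VARS2 had 7.66, 9.19 and 10.3 FPKM in siEHMT2 libraries, against 8.79, 8.82 and 7.09 FPKM in siNC libraries, so both genes were highest in siEHMT2 library 3 with overlapping groups. SARS2 shares 1492 bases, or 46.2% of its exon bases, on the same strand with a protein-coding gene annotated in GENCODE 29 as AC011455.2, for which no value was used here. SARS2 also shares 349 bases on the opposite strand with MRPS12, a mitochondrial ribosomal protein gene, which is 10.8% of the SARS2 exon bases. YARS shares 396 bases on the opposite strand with S100PBP. S100PBP had 3.69, 4.01 and 4.28 FPKM in siEHMT2 libraries, against 6.08, 6.08 and 5.15 FPKM in siNC libraries, so it was lower in each siEHMT2 library, as YARS was. These neighbors are only some of those that share exon bases, and they were not picked by the size of the share. S100PBP covers 4.82% of the YARS exon bases. UBFD1 covers 6.46% of the EARS2 and TMEM151B 5.47% of the AARS2 exon bases, both on the opposite strand and with overlapping groups. The part of shared bases in the values was not tested.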
